A study of Mus musculus with 8 samples.

Results

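The genes examined are p53, its regulators and its target genes, a module of 34 genes. They were chosen by name for their known place in the p53 pathway, with earlier results of these data known. Each gene was represented by the brightest of the probe sets that the platform annotation assigns to that gene alone, and 32 of the 34 were measured this way, out of 18193 genes in the whole series. Trp53 itself and Bax were not analysed here. RNA came from mouse embryonic fibroblasts (MEFs), primary cells grown from embryos, of the C57BL/6 strain at passage 13, measured on 8 Affymetrix mouse expression arrays. There were 4 groups of 2 arrays each: Stat5a/b-null cells with growth hormone (GH), wild-type cells with GH, null cells without GH and wild-type cells without GH. All cells were starved for 5 hours, and those given GH received 1 ug/ml for 2 hours. Null cells lack the transcription factors STAT5A and STAT5B, which GH activates through its receptor and JAK2. How the alleles were made, and whether a genotype came from more than 1 embryo or line, is not given in the labels, so differences between these cells cannot be told apart from differences between lines.

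p53 is a transcription factor that is kept scarce in unstressed cells by the ubiquitin ligase MDM2 and is stabilised by DNA damage, oncogene activity and the stress of culture. It switches on genes that stop the cell cycle, above all Cdkn1a, genes that promote cell death, genes of DNA repair, and genes such as Mdm2 that feed back on p53 itself. In MEFs the pathway is known for restraining growth during serial passage. The members were grouped here as feedback regulators, arrest and growth restraint, apoptosis and survival signalling, DNA repair and nucleotide supply, and other targets.

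The p53 response element consists of 2 half-sites of 10 bases, and it was looked for in the RefSeq promoters of the members (mouse assembly GRCm38.p6, 250 bases before to 50 after a start site), allowing 2 mismatches in all, a spacer of at most 13 bases and no change in the core C and G of either half-site. The element reads the same on both strands. Promoters were given for 23 of the 32 measured members, 30 promoters in all, and 3 of them, 10.0%, held such an element, against 4.09% of the 32851 promoters in the table. The 3 are shown because they belong to members that differ in opposite directions in the arrays: Ccng1 was lower in null cells, and Gadd45a and Sesn1 were higher. The fourth sequence is the promoter of Fas, the member with the largest GH effect, which holds the STAT-type motif TTCNNNGAA (also the same on both strands, found in 8.3% of all promoters and in 3 of the 30). The other members with this motif were Polk, which fell with GH in null cells (-0.46), and Trp53i11, which was not called there (-0.01). The sequences are Ccng1 at chr11:40755237-40755536 on the minus strand, Gadd45a at chr6:67037358-67037657 on the minus strand, Sesn1 at chr10:41887189-41887488 on the plus strand and Fas at chr19:34290409-34290708 on the plus strand. Capitals mark the half-sites in the first 3 sequences and the STAT-type motif in the last.
Ccng1: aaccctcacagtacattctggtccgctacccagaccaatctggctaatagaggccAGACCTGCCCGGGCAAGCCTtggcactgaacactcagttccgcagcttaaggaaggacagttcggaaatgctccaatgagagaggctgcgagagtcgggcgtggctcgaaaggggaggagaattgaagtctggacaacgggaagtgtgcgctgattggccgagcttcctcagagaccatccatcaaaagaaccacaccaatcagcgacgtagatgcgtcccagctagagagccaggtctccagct
Gadd45a: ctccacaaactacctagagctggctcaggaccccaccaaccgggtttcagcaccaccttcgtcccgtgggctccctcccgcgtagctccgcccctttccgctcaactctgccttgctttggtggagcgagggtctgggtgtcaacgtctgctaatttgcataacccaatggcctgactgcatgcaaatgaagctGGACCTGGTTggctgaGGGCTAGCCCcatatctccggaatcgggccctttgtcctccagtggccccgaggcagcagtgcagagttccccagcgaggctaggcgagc
Sesn1: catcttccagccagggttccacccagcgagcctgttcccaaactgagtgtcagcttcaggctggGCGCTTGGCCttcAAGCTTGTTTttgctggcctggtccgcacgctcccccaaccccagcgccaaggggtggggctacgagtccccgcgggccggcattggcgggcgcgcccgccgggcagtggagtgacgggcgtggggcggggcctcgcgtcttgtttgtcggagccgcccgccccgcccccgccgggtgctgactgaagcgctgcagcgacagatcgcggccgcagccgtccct
Fas: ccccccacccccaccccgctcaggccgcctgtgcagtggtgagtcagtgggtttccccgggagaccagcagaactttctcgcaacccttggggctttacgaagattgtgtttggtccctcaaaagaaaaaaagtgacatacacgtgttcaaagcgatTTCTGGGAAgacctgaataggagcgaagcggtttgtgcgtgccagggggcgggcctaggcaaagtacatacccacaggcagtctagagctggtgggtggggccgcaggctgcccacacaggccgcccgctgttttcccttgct
The Ccng1 element had 1 mismatch and a spacer of 0, and those of Gadd45a and Sesn1 had 2 mismatches each, with spacers of 6 and 3 bases. A match in these windows describes letters only, and binding was not measured.

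Values are on the log2 scale, so that a difference of 1 is 2-fold. Replicate arrays correlated at 0.997 to 0.998 over all probe sets, and the median SD of a member between the 2 arrays of a group was 0.062. All 13 fibroblast markers examined lay above the first quartile of gene means (6.13) in both genotypes. Stat5a lay between 5.57 and 5.84 on null arrays, below that quartile, and between 7.15 and 7.83 on wild-type arrays, and Stat5b between 6.93 and 7.33 on null and between 7.89 and 8.06 on wild-type arrays. A second probe set of Stat5b averaged 5.25 on null arrays, below the quartile, and 8.39 on wild-type arrays, so the probe sets of this gene differ in how low they lie in null cells. A level below the quartile was not set apart from background, and a difference against it is given as a lower bound. Each of 14 marker genes of macrophages and other leukocytes was lower on null arrays, with or without GH, with a summed level (log2) of 11.21 to 11.48 on null arrays and 15.08 to 15.27 on wild-type arrays, and 6 of them, Ptprc and Adgre1 included, lay below the quartile in null cells. Their part in the genotype differences described next was not tested, and in bulk RNA fewer cells of a type and less RNA per cell cannot be told apart.

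Most of the listed p53 target genes were lower in Stat5a/b-null cells than in wild-type cells. The list was chosen with earlier results of these data known, so its counts beside the shares of all genes are no independent test. Without GH, 26 of the 32 members were lower and 4 higher at an adjusted p below 0.05 (limma, Benjamini-Hochberg over all genes), where 22.7% of all genes were lower and 24.8% higher. At least 2-fold lower were 19 members, against 6.13% of all genes. The median log2 difference of the members was -1.52, beside 0.03 for all genes. With GH, 24 members were lower and 3 higher (23.1% and 22.2% of all genes), 17 of them at least 2-fold lower against 5.98% of all genes, with a median of -1.07 beside -0.02. Averaged over the GH states, 26 were lower and 4 higher (26.8% and 27.7% of all genes), with 19 lower and 2 higher by at least 2-fold (5.96% and 4.96% of all genes). In both states 24 members were lower. The share of all genes lower in both was not counted, and it can be at most the 22.7% lower without GH. In the heat map of the members by array, this shows as low values on the 4 null arrays and high values on the 4 wild-type arrays.

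**Figure D1:**
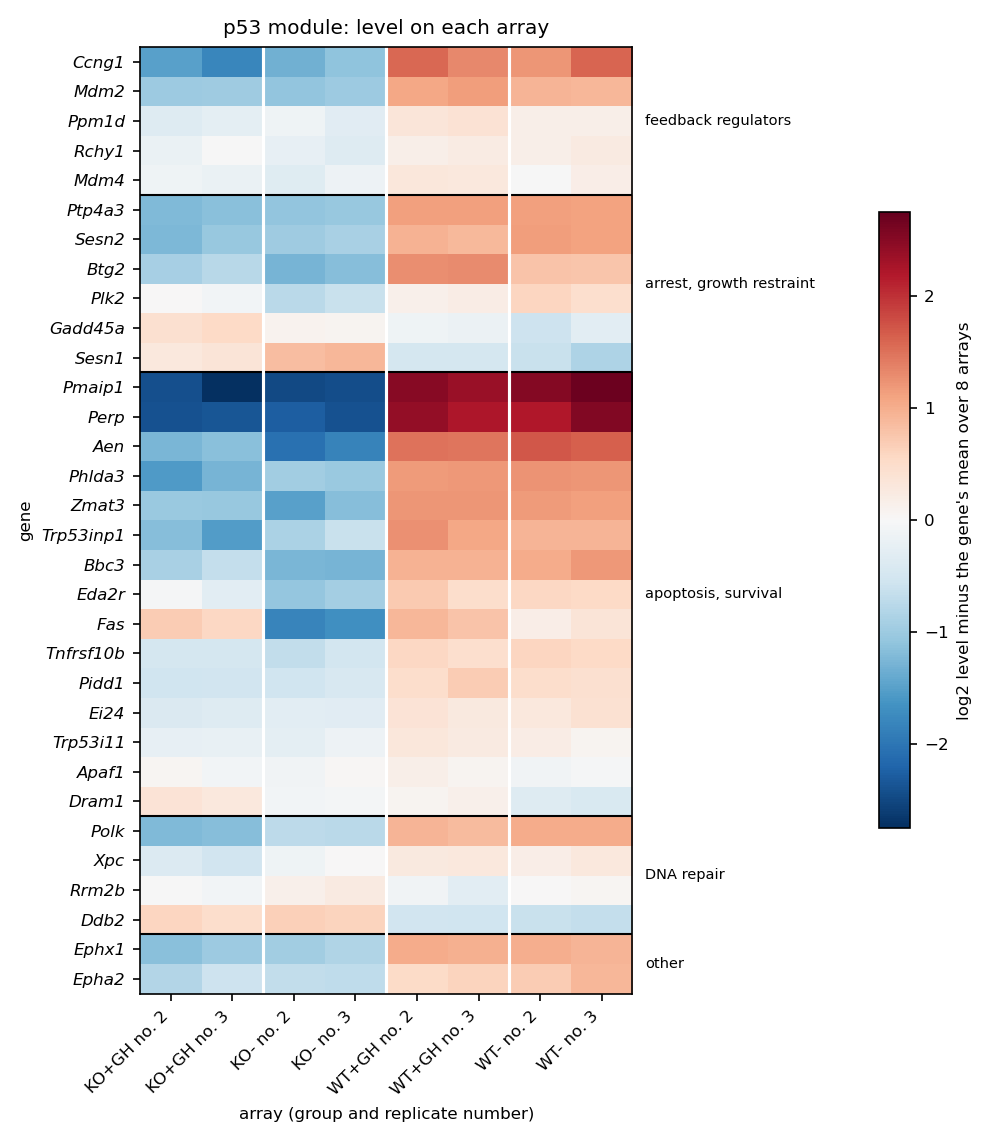
Level of each of the 32 measured members (rows, grouped by role) on each of the 8 arrays (columns; KO is Stat5a/b-null, WT wild type, a minus sign means without GH), as log2 level minus the mean of the gene over the 8 arrays; red is above that mean and blue below. The 4 null arrays are blue for most rows, the deepest being Pmaip1 and Perp, while Sesn1, Gadd45a and Ddb2 run the other way.

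The feedback class (5 measured genes) was lower throughout in null cells, with and without GH, with a median of -0.52 in the average. Of all genes, 23.1% were lower with GH and 22.7% without. Mdm2, the ubiquitin ligase that marks p53 for destruction and is itself a p53 target, had 10.92 and 10.95 in null cells with GH, against 12.98 and 13.05 in wild-type cells with GH. Without GH it had 10.83 and 10.93 in null cells, against 12.85 and 12.82 in wild-type cells. The genotypes did not overlap, and the share of all genes without overlap was not counted. Mdm2 was 3.88-fold lower in null cells without GH (-1.96 ± 0.09 SE, adjusted p = 2.62e-09). Ccng1, which encodes cyclin G1, a partner of a phosphatase that acts on MDM2, had 10.55 and 10.26 in null cells with GH, against 13.63 and 13.38 in wild-type cells with GH. In cells without GH it had 10.72 and 10.94 on null arrays, against 13.26 and 13.65 on wild-type arrays. It was the feedback gene with the largest difference, at -2.86 ± 0.10 in the average (7.28-fold, adjusted p = 1.76e-10).

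The other 3 feedback genes differed less. Mdm4, an MDM2 relative that blocks the activating surface of p53, had 7.97 and 7.91 in null cells with GH against 8.41 and 8.38 in wild-type cells with GH, and 7.76 and 7.94 against 8.09 and 8.27 without GH (-0.39 ± 0.07 in the average, adjusted p = 0.000347). Ppm1d encodes WIP1, a phosphatase that reverses damage signalling to p53; it had 8.36 and 8.44 in null cells with GH, against 9.04 and 9.11 in wild-type cells with GH, and 8.60 and 8.41 against 8.86 and 8.87 without GH (-0.52 ± 0.07, adjusted p = 1.91e-05). Rchy1, a further ubiquitin ligase for p53, had 11.16 and 11.33 in null cells with GH, against 11.50 and 11.56 in wild-type cells with GH, and 11.11 and 10.99 against 11.51 and 11.60 without GH (-0.39 ± 0.07, adjusted p = 0.000259). For all 3 the wild-type arrays lay above the null arrays without overlap, and the share of all genes without overlap was not counted. Single-state calls of these genes were lost when 1 array was left out: Mdm4 without GH (without null array 2 or wild-type array 3, -0.24 and -0.23), Ppm1d without GH (without null array 3, -0.27) and Rchy1 with GH (without null array 2 or either wild-type array, -0.20 to -0.31).

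Genes of arrest and growth restraint split into 4 lower and 2 higher, in the average as without GH, with a median of -1.38 in the average. Of all genes, 26.8% were lower and 27.7% higher in the average, and 22.7% and 24.8% without GH. Ptp4a3, a phosphatase linked to cell cycle arrest in MEFs, had 8.50 and 8.57 in null cells with GH, against 10.84 and 10.83 in wild-type cells with GH, and 8.63 and 8.68 against 10.85 and 10.83 without GH. It was 4.73-fold lower in null cells in the average (-2.24 ± 0.06, adjusted p = 1.19e-11). Sesn2 encodes sestrin 2, a stress-induced inhibitor of mTORC1 signalling. Its levels were 8.25 and 8.44 in null cells with GH, against 10.43 and 10.37 in wild-type cells with GH, and 8.51 and 8.59 against 10.63 and 10.58 without GH. The difference was -2.06 ± 0.09 in each GH state (adjusted p = 3.82e-09 with GH and 3.83e-09 without). Btg2, an antiproliferative cofactor of mRNA deadenylation, had 9.20 and 9.35 in null cells with GH, against 11.38 and 11.40 in wild-type cells with GH, and 8.83 and 8.94 against 10.89 and 10.88 without GH. It was 4.16-fold lower in the average (-2.06 ± 0.06, adjusted p = 4.77e-11).

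Sesn1 and Gadd45a were higher in null cells. Sesn1, a paralog of Sesn2 that also restrains mTORC1 signalling, had 10.43 and 10.51 in null cells with GH, against 9.66 and 9.67 in wild-type cells with GH, and 10.999 and 11.068 against 9.53 and 9.30 without GH. Thus the paralogs Sesn1 and Sesn2 differed in opposite directions, Sesn1 being 2.31-fold higher in the average (1.21 ± 0.07, adjusted p = 1.27e-08). Gadd45a, a growth arrest and damage gene that other stress pathways also induce, had 11.50 and 11.62 in null cells with GH, against 10.94 and 10.89 in wild-type cells with GH, and 11.16 and 11.14 against 10.49 and 10.78 without GH (0.58 ± 0.07 in the average, adjusted p = 2.28e-05). In both genes all 4 null arrays lay above all 4 wild-type arrays, which was not counted over all genes.

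The apoptosis class held the deepest differences, with 13 of 15 members lower and 1 higher in the average and a median of -1.16. Of all genes, 26.8% were lower and 27.7% higher. Pmaip1 encodes NOXA, a pro-apoptotic BCL2 family protein. Its levels were 5.93 and 5.60 in null cells with GH, against 10.84 and 10.71 in wild-type cells with GH, and 5.87 and 5.91 against 10.87 and 11.04 without GH. All 4 null values lay below the first quartile, so Pmaip1 was at least 26.6-fold lower in null cells in the average (adjusted p = 1.82e-13). Perp, a membrane protein of desmosomes needed for p53-driven death in some cell types, had 4.79 and 4.84 in null cells with GH, against 9.59 and 9.40 in wild-type cells with GH, and 4.92 and 4.80 against 9.39 and 9.73 without GH. It was at least 10.6-fold lower (adjusted p = 3.44e-13), the null arrays again lying below the quartile.

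Aen, a nuclease that promotes apoptosis, had 9.22 and 9.32 in null cells with GH, against 11.97 and 11.93 in wild-type cells with GH, and 8.42 and 8.63 against 12.17 and 12.11 without GH. It was 8.88-fold lower in the average (-3.15 ± 0.07, adjusted p = 1.84e-12). Phlda3, which competes with AKT for membrane lipids and so dampens survival signalling, had 10.41 and 10.69 in null cells with GH, against 13.13 and 13.17 in wild-type cells with GH, and 11.02 and 10.96 against 13.20 and 13.18 without GH. This was a 5.28-fold difference (-2.40 ± 0.07, adjusted p = 3.41e-11). Bbc3, which encodes PUMA, the other main pro-apoptotic BCL2 family target of p53, was 4.15-fold lower (-2.05 ± 0.07, adjusted p = 1.55e-10). Its levels were 8.17 and 8.40 in null cells with GH, against 10.01 and 10.02 in wild-type cells with GH, and 7.81 and 7.78 against 10.08 and 10.26 without GH. Trp53inp1, a stress protein that promotes p53 phosphorylation and autophagy, had 9.66 and 9.31 in null cells with GH, against 12.09 and 11.90 in wild-type cells with GH, and 9.96 and 10.22 against 11.77 and 11.78 without GH (-2.10 ± 0.09, adjusted p = 9.45e-10). None of these 4 genes overlapped between the genotypes in either GH state, and the share of all genes without overlap was not counted. Zmat3, a p53-induced RNA-binding protein, lay between 9.23 and 9.70 on null arrays and between 11.85 and 11.93 on wild-type arrays and was 5.11-fold lower (-2.35 ± 0.07, adjusted p = 5.45e-11).

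Receptors and other death signalling genes were lower as well, by smaller amounts. Eda2r, a receptor of the tumour necrosis factor family that binds ectodysplasin A2, had 8.82 and 8.56 in null cells with GH, against 9.57 and 9.35 in wild-type cells with GH, and 7.79 and 7.93 against 9.43 and 9.41 without GH. Its average difference was -1.16 ± 0.08 (adjusted p = 6.78e-08). Tnfrsf10b, the mouse TRAIL receptor, lay between 6.22 and 6.41 on null arrays, close to the first quartile, and between 7.36 and 7.48 on wild-type arrays (-1.08 ± 0.07, adjusted p = 2.04e-08). Fas, the receptor of Fas ligand, was lower in the average (-1.11 ± 0.07, adjusted p = 3.27e-08), and its values by array are given with the GH effects. Pidd1, a scaffold for caspase activation, lay between 7.64 and 7.75 on null arrays and between 8.63 and 8.89 on wild-type arrays (-1.04 ± 0.07, adjusted p = 4.9e-08). Ei24, a membrane protein of the endoplasmic reticulum, lay between 11.60 and 11.70 on null arrays and between 12.26 and 12.41 on wild-type arrays (-0.68 ± 0.06, adjusted p = 1.16e-06). The p53-inducible gene Trp53i11 lay between 7.84 and 7.98 on null arrays and between 8.18 and 8.43 on wild-type arrays (-0.42 ± 0.07, adjusted p = 0.000122). The call of Trp53i11 without GH was lost when array 2 of null or of wild-type cells was left out, at differences of -0.26 and -0.27.

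Apaf1 and Dram1 departed from this pattern. Apaf1, the core of the apoptosome, lay between 8.96 and 9.11 on null arrays and between 8.95 and 9.22 on wild-type arrays, which overlapped without GH but not with GH, and its average difference of -0.05 (adjusted p = 0.559) had a 95% interval of -0.19 to 0.09. Dram1, a lysosomal membrane protein that promotes autophagy, had 9.84 and 9.75 in null cells with GH, against 9.54 and 9.61 in wild-type cells with GH, and 9.39 and 9.41 against 9.12 and 9.05 without GH (0.27 ± 0.06 in the average, adjusted p = 0.00234). With GH alone its difference of 0.21 did not pass the test (adjusted p = 0.0627), so the members called higher in both GH states were Sesn1, Gadd45a and Ddb2.

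**Figure D2:**
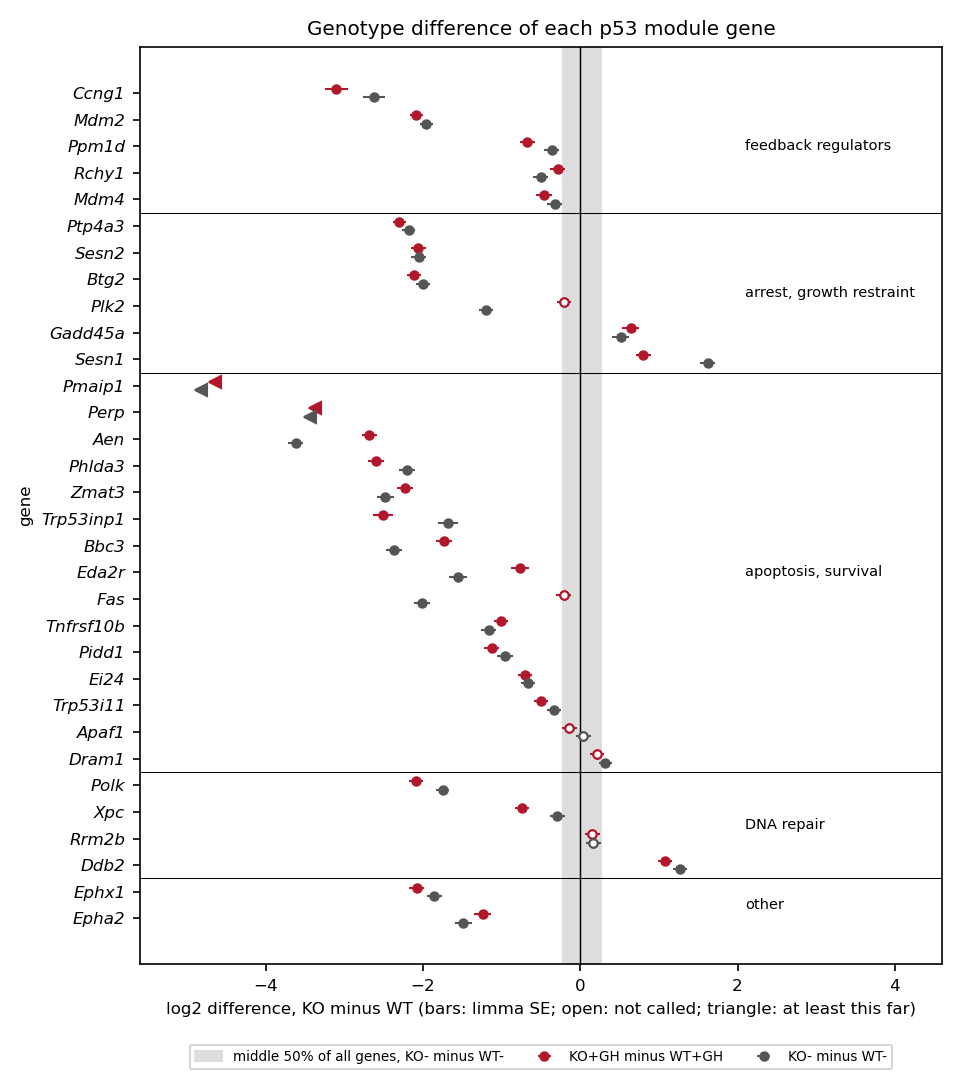
Log2 difference of null minus wild-type cells for each member (rows, grouped by role), with GH in red and without GH in grey; bars are limma standard errors (2 arrays per group), open points were not called, and triangles mark lower bounds. Most points lie left of the band that holds the middle 50% of all genes, and for Fas, Plk2 and Eda2r the red point lies closer to 0 than the grey one.

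Of the 4 repair genes, 2 were lower and 1 higher in the average, with a median of -0.18. Of all genes, 26.8% were lower and 27.7% higher, and 4 genes are too few to set apart from these shares. Polk, a DNA polymerase that copies past damaged bases, had 8.32 and 8.37 in null cells with GH, against 10.46 and 10.41 in wild-type cells with GH, and 8.81 and 8.80 against 10.55 and 10.55 without GH. It was 3.78-fold lower in the average (-1.92 ± 0.06, adjusted p = 4.34e-11). Xpc, a damage sensor of nucleotide excision repair, had 7.79 and 7.65 in null cells with GH, against 8.45 and 8.48 in wild-type cells with GH, and 8.05 and 8.19 against 8.37 and 8.46 without GH (-0.52 ± 0.07 in the average, adjusted p = 2.15e-05). The Xpc call without GH was lost without null array 2 or wild-type array 3, at differences of -0.225 and -0.250.

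Ddb2, the partner of DDB1 in recognising ultraviolet damage, was higher in null cells. It had 8.68 and 8.56 in null cells with GH, against 7.55 and 7.53 in wild-type cells with GH, and 8.75 and 8.70 against 7.48 and 7.42 without GH (2.26-fold, 1.17 ± 0.06 in the average, adjusted p = 5.84e-09). Human DDB2 is a well known p53 target, whereas mouse Ddb2 is known to respond weakly. Rrm2b, the p53-inducible subunit of ribonucleotide reductase, lay between 9.02 and 9.35 on null arrays and between 8.81 and 9.15 on wild-type arrays. It did not pass the test in the average (0.16 ± 0.07, adjusted p = 0.066), with a 95% interval of 0.01 to 0.30, and passed in 4 of the alternative settings. Of the remaining targets, Ephx1, a detoxifying epoxide hydrolase, had 10.37 and 10.52 in null cells with GH, against 12.54 and 12.51 in wild-type cells with GH, and 10.57 and 10.71 against 12.52 and 12.47 without GH (-1.97 ± 0.07, adjusted p = 9.81e-11). Epha2, an ephrin receptor kinase, had 8.55 and 8.78 in null cells with GH, against 9.86 and 9.95 in wild-type cells with GH, and 8.68 and 8.64 in null cells without GH, against 10.03 and 10.26 in wild-type cells without GH (-1.36 ± 0.08, adjusted p = 1.05e-08). All 4 null arrays lay below all 4 wild-type arrays in both of these genes, which was not counted over all genes.

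Other genes of the pathway were set beside the members, in 3 lists that were also chosen with earlier results of these data known. Of 27 further p53 targets, 17 were lower and 6 higher in null cells in the average (26.8% and 27.7% of all genes), with a median of -0.68 (-0.45 with 3 dim genes at their bound). With GH the counts were 17 lower and 4 higher (23.1% and 22.2% of all genes), and without GH 16 lower and 4 higher (22.7% and 24.8%). Cdkn1a, the gene of the cell cycle inhibitor p21, lay between 9.52 and 9.80 on null arrays and between 13.76 and 13.93 on wild-type arrays, an 18.8-fold difference (-4.23 ± 0.07, adjusted p = 1.82e-13). The thiamine transporter gene Slc19a2 (-3.06 ± 0.07, adjusted p = 2.94e-12), Ddit4, an inhibitor of mTORC1 signalling also known as REDD1 (-2.37 ± 0.06, adjusted p = 9.63e-12), and the xylulose reductase gene Dcxr (-2.18 ± 0.08, adjusted p = 2.47e-10) followed.

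Among 29 genes of damage sensing and p53 cofactors, 8 were lower and 12 higher, with a median of 0.12, where 26.8% of all genes were lower and 27.7% higher, so the lower count is close to that of all genes. Ppp1r13l, which encodes the p53 inhibitor iASPP (-1.33 ± 0.08, adjusted p = 1.46e-08), and the kinase gene Hipk2, which phosphorylates p53 (-0.97 ± 0.06, adjusted p = 5.27e-08), were lower. The checkpoint kinase gene Chek1 (1.19 ± 0.07, adjusted p = 1.11e-08) and the deacetylase gene Sirt1 (0.84 ± 0.12, adjusted p = 4.48e-05) were higher. Cdkn2a, the locus of the MDM2 inhibitor ARF, did not pass the test: it lay between 11.54 and 11.84 on null arrays and between 11.52 and 11.62 on wild-type arrays (0.15 ± 0.08, adjusted p = 0.117, 95% interval -0.02 to 0.32).

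Genes that are lowered when p53 and p21 are active were mostly higher in null cells, 13 of 14 in the average, with a median of 0.72, where 27.7% of all genes were higher. With GH 12 of the 14 were higher (22.2% of all genes) and without GH 11 (24.8%). The kinetochore gene Cenpa (1.64 ± 0.08, adjusted p = 3.84e-09), the spindle checkpoint gene Bub1b (1.24 ± 0.07, adjusted p = 5.97e-09), the kinesin gene Kif23 (1.14 ± 0.07, adjusted p = 4.2e-08) and the cyclin gene Ccnb2 (1.09 ± 0.07, adjusted p = 2.24e-08) had the largest differences. The plot of the member classes and pathway lists sets these distributions side by side.

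**Figure D3:**
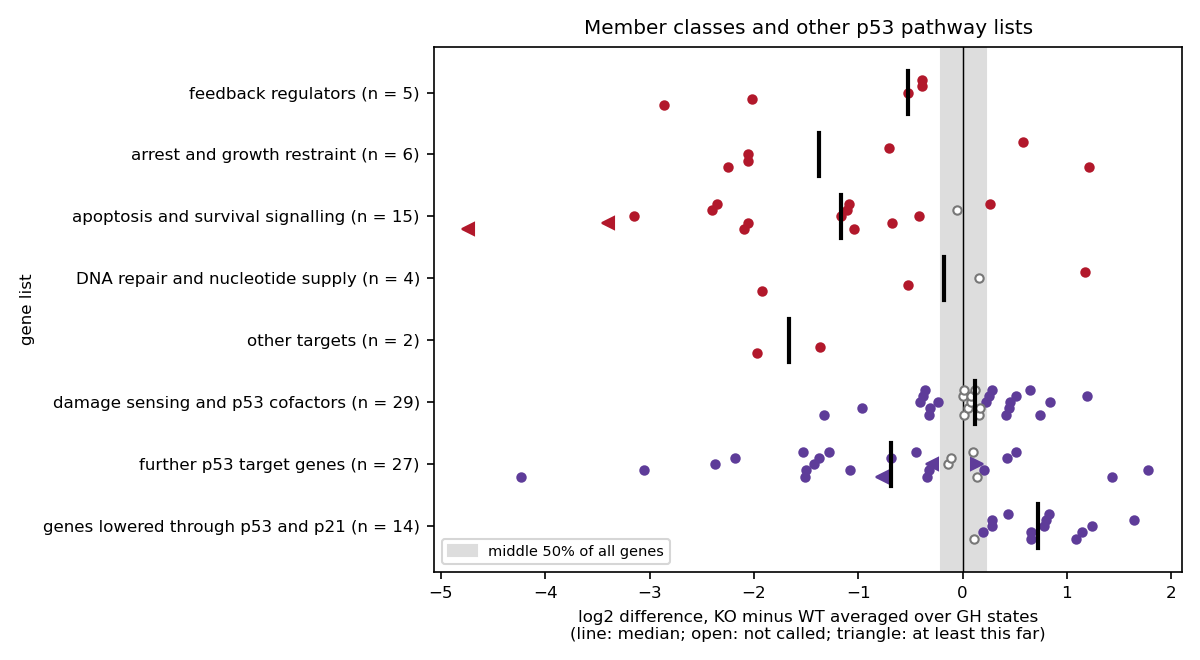
Log2 difference of null minus wild-type cells averaged over the GH states, 1 point per gene, for the 5 member classes (red) and 3 other pathway lists (purple); vertical lines are medians, open points were not called, triangles mark lower bounds, and 1 gene below the first quartile in both genotypes is not drawn. The members and further targets spread to the left of the band of all genes, and most of the genes lowered through p53 and p21 lie to its right.

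GH changed few members in wild-type cells. Given for 2 hours, it raised 3 of 32 members in wild-type cells (1.72% of all genes rose), and limma called no member lower (0.896% of all genes). At an unadjusted p below 0.05 in limma 3 members were lower, and the share of all genes at that rule was not counted. Limma with an intensity trend called 1 member lower, where 196 of all 18193 genes were lower. The risers were Fas (0.57 ± 0.10, adjusted p = 0.00662), Btg2 (0.51 ± 0.09, adjusted p = 0.00748) and Dram1 (0.50 ± 0.09, adjusted p = 0.00681). A second probe set of Btg2, with means of 8.47 in null and 10.65 in wild-type cells, gave 0.342 in wild-type cells and was not called (limma on every probe set, adjusted p = 0.1745). Each of the 3 risers was higher on both GH arrays than on both arrays without GH, which was not counted over all genes. Each call was lost when 1 array was left out: Btg2 without either GH array, Dram1 without GH array 3, and Fas without GH array 2 or without untreated array 2, at differences of 0.46 to 0.52. No member changed 2-fold, where 0.66% of all genes did. Without either GH array the number of called members fell to 1, and over all genes 313 higher and 163 lower became 203 and 92 without GH array 2 and 225 and 91 without GH array 3. Mdm2 (0.18 ± 0.09, adjusted p = 0.502), Ccng1 (0.05 ± 0.15, adjusted p = 0.978) and Pmaip1 (-0.18 ± 0.12, adjusted p = 0.731) did not pass the test.

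In null cells GH changed 13 of 32 members, 8 rising and 5 falling, where 5.36% of all genes rose and 6.35% fell. These shares stand for 975 and 1155 genes, which became 520 and 298 without GH array 2 of null cells, 546 and 488 without GH array 3, 517 and 467 without untreated array 2 and 776 and 568 without untreated array 3. With each array centred on its median 1144 genes rose and 726 fell, beside 8 and 5 members. Only Fas changed at least 2-fold, as 0.868% of all genes did, and 6 of the 13 calls held when any 1 array was left out. The 8 that rose were Fas, Eda2r, Aen, Plk2, Bbc3, Gadd45a (0.41 ± 0.11, adjusted p = 0.0277), Dram1 (0.39 ± 0.09, adjusted p = 0.0127) and Btg2 (0.39 ± 0.09, adjusted p = 0.0165). The 5 that fell were Trp53inp1, Sesn1, Polk (-0.46 ± 0.08, adjusted p = 0.00415), Phlda3 (-0.44 ± 0.10, adjusted p = 0.0158) and Xpc (-0.40 ± 0.09, adjusted p = 0.0171). Feedback genes did not pass the test in null cells, with Mdm2 at 0.06 ± 0.09 (adjusted p = 0.72) and Ccng1 at -0.43 ± 0.15 (adjusted p = 0.079). The calls of Gadd45a, Dram1, Btg2, Bbc3, Phlda3, Xpc and Trp53inp1 were each lost on leaving out at least 1 null array, and the number of called members then fell to 8 without untreated array 2 or GH array 3.

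**Figure D4:**
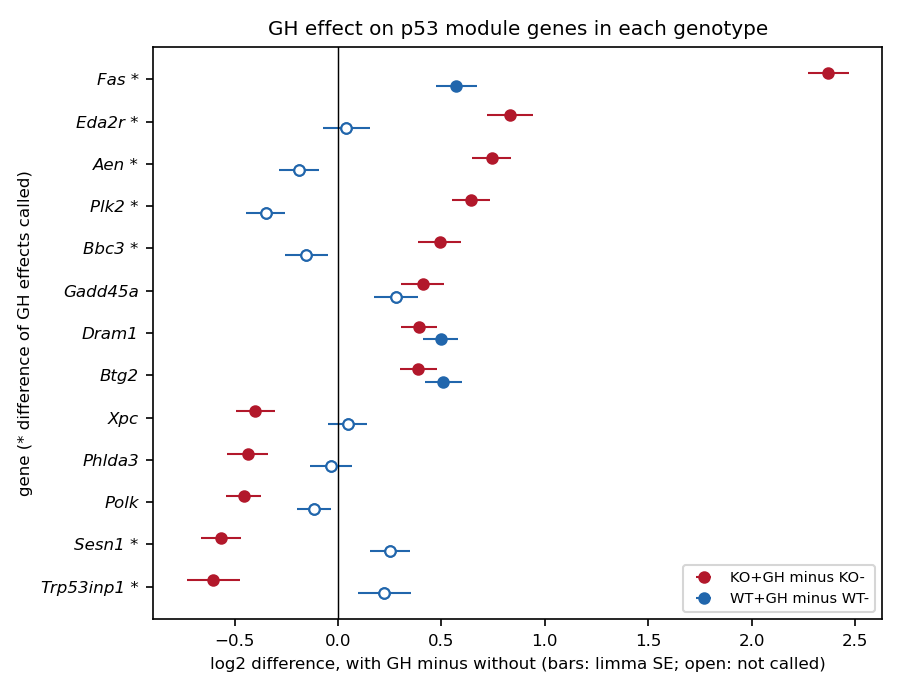
Log2 difference with GH minus without GH for the 13 members called in null cells (red) beside the same genes in wild-type cells (blue); bars are limma standard errors (2 arrays per group), open points were not called, and a star marks genes whose GH effects differed between the genotypes. Fas lies farthest to the right in both genotypes, at 2.37 in null and 0.57 in wild-type cells.

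The GH effect itself differed between the genotypes for 7 of 32 members, where 5.16% of all genes were called for this difference. The share stands for 515 genes higher and 423 lower, which became 265 and 172 without GH array 2 of null cells, 252 and 207 without GH array 3, 300 and 285 without untreated array 2 and 390 and 238 without untreated array 3 of null cells. Without GH array 3 of wild-type cells it was 310 and 251, and without GH array 2 of wild-type cells 347 and 239. With each array centred on its median 697 genes were higher and 311 lower, beside 5 and 2 members. It was higher in null cells for 5 members (2.83% of all genes) and lower for 2 (2.33%), and reached 2-fold for 1 (1.13%). It is computed from the same 8 arrays as the other comparisons, so a gene low in null cells without GH enters both. Fas, the death receptor that binds Fas ligand and is also induced by inflammatory signalling, rose 5.18-fold in null cells (2.37 ± 0.10, adjusted p = 2.03e-08) and 1.49-fold in wild-type cells. Its levels were 9.75 and 9.63 in null cells with GH, against 7.25 and 7.38 in null cells without GH, and 9.97 and 9.84 in wild-type cells with GH, against 9.25 and 9.41 in wild-type cells without GH. The GH effect was larger in null cells by 1.80 ± 0.14 (adjusted p = 1.69e-05). Under GH the genotypes then differed by -0.21 in Fas (adjusted p = 0.108, 95% interval -0.43 to 0.01), although null cells were 4.03-fold lower without GH.

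Plk2, a polo-like kinase of the centrosome cycle, followed a similar course. It had 12.08 and 11.99 in null cells with GH, against 11.33 and 11.46 in null cells without GH, and 12.21 and 12.27 in wild-type cells with GH, against 12.66 and 12.52 in wild-type cells without GH. In null cells Plk2 rose by 0.64 ± 0.09 (adjusted p = 0.00104), in wild-type cells the difference was -0.35 ± 0.09 (adjusted p = 0.0908), and the effects differed by 0.99 ± 0.13 (adjusted p = 0.000963). Its genotype difference was -1.20 without GH and -0.21 with GH, the second not passing the test (adjusted p = 0.0969). With the 2 probe sets of Plk2 averaged, the difference of effects was 0.40 and was not called; the second probe set lay below the first quartile in both genotypes.

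Aen, Eda2r and Bbc3 also rose in null cells, by 0.74 ± 0.10 (adjusted p = 0.000431), 0.83 ± 0.11 (adjusted p = 0.000616) and 0.49 ± 0.10 (adjusted p = 0.00931). In wild-type cells the same genes gave -0.19, 0.04 and -0.15, none past the test. Their effects differed by 0.93 ± 0.14 (adjusted p = 0.00178), 0.79 ± 0.16 (adjusted p = 0.0137) and 0.64 ± 0.15 (adjusted p = 0.0242). All 3 stayed lower in null than in wild-type cells under GH. The difference for Eda2r was lost in 3 and that for Bbc3 in 6 of the 8 fits that leave out 1 array.

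Sesn1 and Trp53inp1 went the other way. Sesn1 fell by 0.57 on the log2 scale in null cells (adjusted p = 0.003), against a difference of 0.25 in wild-type cells (adjusted p = 0.346), a difference of -0.82 ± 0.14 (adjusted p = 0.00491). Trp53inp1 fell by 0.60 in null cells (adjusted p = 0.01), against a difference of 0.22 in wild-type cells (adjusted p = 0.655), a difference of -0.83 ± 0.18 (adjusted p = 0.0208) that was lost in 3 of the 8 fits without 1 array. Fas, Aen, Plk2 and Sesn1 kept the call in all 8. A second probe set of Trp53inp1, with means of 6.85 in null and 8.07 in wild-type cells, gave the same signs but passed neither test (limma on every probe set). It gave -0.218 for GH in null cells (adjusted p = 0.161) and -0.385 for the difference of effects (adjusted p = 0.1329). The summed level of the macrophage markers lay between 11.38 and 11.48 in null cells with GH, against 11.21 and 11.35 in null cells without GH, and the part of these markers in the GH effects was not tested.

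**Figure D5:**
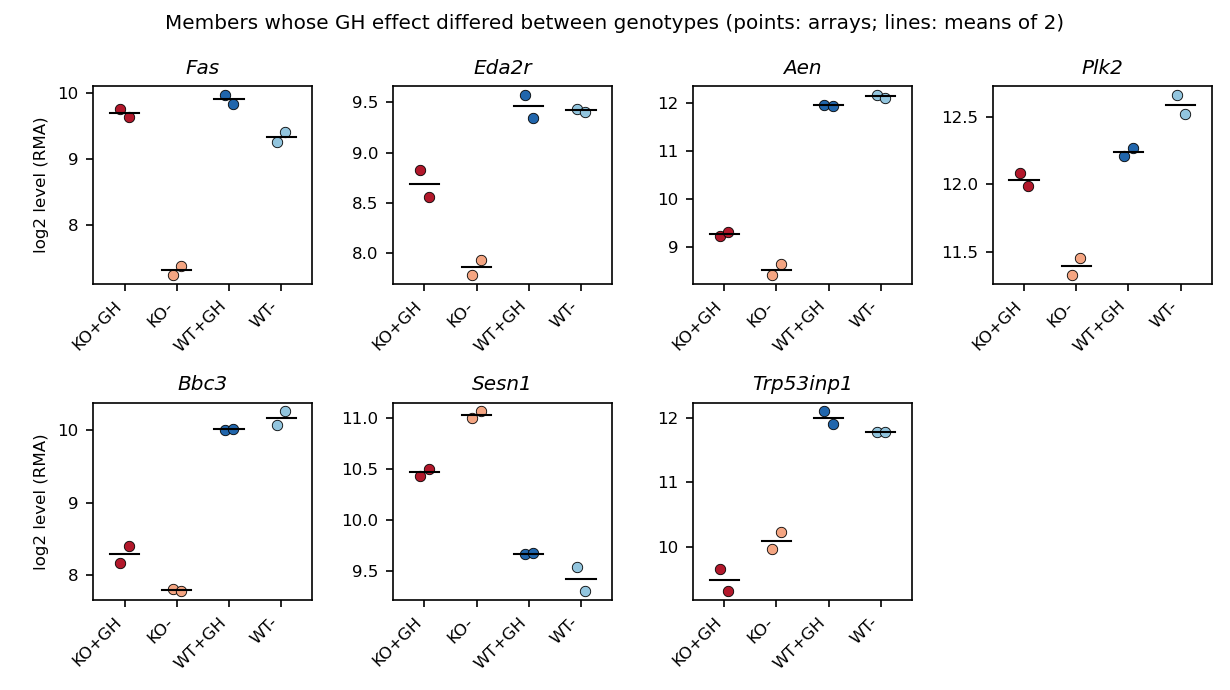
Log2 level of the 7 members whose GH effect differed between the genotypes, 1 panel per gene, with 1 point per array, lines for the means of 2 arrays and a separate vertical scale in each panel that does not start at 0. For Fas, both arrays of null cells with GH (9.63 and 9.75) lie close to those of wild-type cells with GH (9.84 and 9.97), while null cells without GH lie at 7.25 and 7.38.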

How the data were processed

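Arrays of 8 samples were analysed as deposited: log2 intensities that the authors made with RMA in Partek 6.10.0511, per the submitters' processing notes; further settings of RMA were not given in the sources used here. RMA sets all arrays to 1 distribution, so a shift shared by all genes cannot be seen. Of 45101 probe sets, 64 controls were left out, 34945 had 1 gene, 932 several and 9160 none in the platform annotation; 34741 of the one-gene symbols were updated through Entrez IDs. Each of 18193 genes was represented by its brightest one-gene probe set. limma 3.58.1 (R 4.3.3) was fitted on 4 group means with 4 residual degrees of freedom, and p-values were adjusted by Benjamini-Hochberg over all genes within a comparison, with calls at 0.05 and errors as SE. The fit was tested on simulated data. A group mean below the first quartile of gene means, 6.13, gives only a bound against that quartile. The number of arrays limits precision, and the titles number the arrays as biological replications without naming cultures or embryos; the p-values cover only spread among the 8 arrays, which may be technical.

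Members and pathway lists were chosen with earlier results of these data known. Values by array are given for Mdm2 and Mdm4, up to 4 called members per class with the largest average genotype difference, members called in a GH comparison and members called against the direction of their class; other members are given by ranges. Of other genes, Cdkn1a, Cdkn2a, Stat5a, Stat5b and up to 4 called genes per pathway list are named. Replicate numbers came from the titles, and 1 null array without GH has the number 2 in its title but 3 in its source name, which bears on the pairing check, the block and which array is named as left out; deviations of same-numbered arrays correlated at -0.279 to 0.129, so the numbers were not taken as pairs. Alternatives were the mean of a gene's probe sets, every probe set by itself, limma with an intensity trend, median centring, dim genes left out, a stricter threshold, a 2-fold minimum, only the groups compared, a replicate block and leaving out each array. A crossed block was added after seeing the data.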

Additional observations from a re-analysis of the deposited data

Results flagged for a closer look

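The GH effect differed between null and wild-type cells, by the test of that difference in limma, for 7 members and for Ddit4 among the other pathway genes named. The effect was higher in null cells by 1.80 for Fas, 0.993 for Plk2, 0.932 for Aen, 0.791 for Eda2r and 0.644 for Bbc3 (log2). It was lower in null cells for Trp53inp1 (-0.829), Sesn1 (-0.817) and Ddit4 (-0.686 ± 0.123 SE, adjusted p = 0.00692). Ddit4 had 9.74 and 9.86 in null cells with GH, against 10.46 and 10.40 in null cells without GH, and 12.52 and 12.50 in wild-type cells with GH, against 12.44 and 12.47 in wild-type cells without GH.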

How the results depend on the processing

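Across the alternatives run, no member value that was called turned its direction. Only the mean of a gene's probe sets, median centring and leaving out an array of a compared group can change a difference. The other settings leave it as it is, so its direction could not turn there. Of the comparisons by gene and setting at the same call rule (the stricter threshold and the 2-fold minimum not included), 2941 kept their side of the threshold, 47 lost the call and 20 gained it. With the replicate block the members called numbered 30 without GH, 27 with GH and 30 in the average for genotype, 3 and 13 for GH in wild-type and null cells and 7 for the difference of GH effects, as without the block. Over all genes the block called 4327 higher and 3988 lower without GH, 3908 and 4049 with GH, and 4914 and 4762 in the average. For GH it called 287 and 140 in wild-type cells and 836 and 877 in null cells, and 413 and 341 for the difference of effects. The replicate numbers share 2 values per group and were not shown to pair the arrays. With the crossed pairing, chosen after seeing the data, the counts were 30, 27, 31, 3, 14 and 8. Over all genes, in the same order, it called 4712 higher and 4251 lower, 4183 and 4364, 5201 and 5023, 354 and 199, 1118 and 1441, and 616 and 548.

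Leaving out 1 array gave 27 to 30 members for genotype without GH, 26 to 27 with GH and 30 to 31 in the average, 8 to 14 for GH in null cells, 1 to 3 for GH in wild-type cells, and 5 to 7 for the difference of effects; a lone array is then assumed to vary like the other groups. At an adjusted p below 0.01, GH in null cells kept 7 called members and the difference of effects 4. The share of all genes at this threshold was not counted, so these 2 counts are not set against it. Requiring 2-fold left 1 member under GH in null cells, 0 under GH in wild-type cells and 1 for the difference of effects, and 19 lower and 2 higher in the average genotype comparison. The shares of all genes, in the same order, were 0.868%, 0.66%, 1.13%, 5.96% and 4.96%. With the mean of its probe sets, Mdm2 was called for GH in wild-type cells (0.324). That mean includes a probe set at 0.569 with means of 5.264 in null and 5.542 in wild-type cells, below the first quartile. The brighter probe sets of Mdm2 gave 0.185 and 0.218 and were not called.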

Other observations

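Of the measured members, 16 had further one-gene probe sets, 26 in all, of which 20 gave the sign of the brightest probe set in the average genotype difference, 18 of them called. Called in the opposite direction were 3: a second probe set of Apaf1 at 0.23, beside -0.05 for the brightest, and 2 probe sets of Rrm2b, with means of 5.11 and 4.30 in null and 5.48 and 4.72 in wild-type cells, all below the first quartile, so that no size is given. For Mdm4, another probe set had a null mean of 5.92, below the quartile, against a wild-type mean of 7.17, while the brightest gave -0.39 and the remaining probe sets gave -0.04 and 0.11 and were not called.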
